A study of Mus musculus with 29 samples.

Results

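The genes described here belong by name to the oxidative phosphorylation system of mouse hematopoietic stem cells (HSCs). They were chosen by name from the 55376 gene symbols of the RNA-seq count files, as symbols that start with Nduf followed by a, b, c, s or v, with Uqcr, Cox4 to Cox8 or Atp5, the 4 symbols Sdha to Sdhd, and the protein-coding genes of the mitochondrial genome. Of 119 symbols matched, 9 with -ps in the name were left out, and 110 members remained. Of these, 97 are nuclear genes, 89 named for subunits and 8 for complex I assembly factors (Ndufaf), and 13 are mitochondrial genes. By complex, 46 members belong to complex I, 4 to complex II, 9 to complex III, 24 to complex IV and 19 to complex V, beside the 8 assembly factors. The rule uses names only, and 4 members that it takes in, Cox6c2, Ndufa11b, Ndufb4c and Ndufs6b, are annotated as processed pseudogenes. They were kept in the counts, and without them the nuclear median log2 fold changes given below are -0.06 (OWT vs YWT), 0.05 in YKO against YWT, -0.35 in OKO against YKO and -0.19 in OKO against OWT.

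HSCs were sorted from the bone marrow of wild-type (WT) mice and of mice in which Gadd45b is knocked out (KO), as Lin- cKit+ Sca1+ CD34- Flk2- CD150+ cells. The 19 RNA-seq libraries are labelled as 4 of young WT (YWT), 4 of old WT (OWT), 4 of young KO (YKO) and 7 of old KO (OKO). The labels give age only as young or old and all mice as female, while the study's methods state that both sexes were used. The knockout mice came from a repository line and were bred and aged at 1 facility, and the way the allele was made is not given in the sources used here. Library titles carry the prefix IB15 or lack it, which is called a batch here. YWT, YKO and OKO1 to OKO3 have no prefix (batch 1), and OWT and OKO4 to OKO7 have it (batch 2). The effects of age and of batch on WT HSCs therefore cannot be told apart. The labels do not name the mouse behind each library, so p-values measure the spread between these libraries.

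Oxidative phosphorylation takes electrons from NADH through complex I and from succinate through complex II, passes them by ubiquinone, complex III and cytochrome c to complex IV, and uses the proton gradient so formed to make ATP at complex V. Complexes I, III, IV and V are assembled from subunits of both genomes, whereas complex II is encoded by nuclear genes alone. Quiescent HSCs are known for relying on glycolysis more than their progeny do, and for raising mitochondrial respiration when they differentiate.

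Library totals ranged from 22197555 to 77970627 counts. The 10 HSC markers were all counted, and their summed level was 2438 to 5093 CPM (read counts scaled to library size by the TMM method) over the 19 libraries. Gadd45b itself was at 7.34 to 17.5 CPM in YWT and 5.14 to 14.3 CPM in YKO, so that this gene did not separate those groups, and YKO means the libraries so labelled throughout. In OWT it was at 10.1 to 15.5 CPM and in OKO at 2.84 to 6.94 CPM, without overlap. Of the 3 OKO libraries of batch 1, OKO1 and OKO3 stood apart, and OKO2 lay close to other libraries. In OKO1 to OKO3, 47901, 42815 and 43800 genes were counted, against 31266 to 43241 in the other 16 libraries. Their TMM factors were 1.83, 1.24 and 1.41, and the next highest was 1.22 in YWT4. Correlation of log2 CPM between replicates was 0.930 to 0.973 within YWT, OWT and YKO and 0.866 to 0.976 within OKO.

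The members covered a wide range of levels. Compared per kilobase of exon, mt-Cytb (cytochrome b of complex III) and mt-Co1 (the catalytic subunit of complex IV) were highest, both at 1061 CPM per kb. Next came mt-Nd1, a membrane subunit of complex I, at 624 CPM per kb. Atp5a1 and Atp5b, the alpha and beta subunits that form the catalytic head of complex V, were the highest nuclear members at 400 and 380 CPM per kb. Among complex IV members, Cox8a was at 346, Cox6b1 at 302, Cox6a1 at 296 and Cox4i1 at 222 CPM per kb. The median was 68.8 CPM per kb over nuclear members and 183 over mitochondrial ones. Exon length here joins the exons of all annotated transcripts of a gene, as in Atp5l (6443 bases) and Ndufab1 (6883 bases). That of each mitochondrial gene is its own span. Nuclear values per kb may thus be too low, and the ranking and the contrast of the genomes carry this limit. By complex, nuclear medians were 60.8 for I, 98.4 for II, 102 for III, 70.4 for IV and 79.0 for V, and 13.5 CPM per kb for the assembly factors. The lowest nuclear members, 8 genes under 1 CPM, were Cox7a1, Cox7b2, Cox8b, Cox8c, Ndufa4l2 and the annotated pseudogenes Ndufa11b, Ndufb4c and Ndufs6b.

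The mitochondrial members with the lowest levels were those whose sequence also occurs in the nuclear genome. In the mm10 genome, 6 of the 13 members have over 99% of their bases inside an identical nuclear copy, and these were the 6 lowest. They were mt-Nd4l at 1.599, mt-Atp8 at 17.1, mt-Nd3 at 23.4, mt-Atp6 at 39.7, mt-Co2 at 41.1 and mt-Co3 at 77.2 CPM per kb. The other 7 members, with 0 to 74.9% of their bases in such a copy, lay between 183 and 1061 CPM per kb. A copy on chromosome 1 (24611535 to 24615565) spans mt-Co2, mt-Atp8, mt-Atp6 and mt-Co3, which were counted at 53.2 to 232 CPM in sum. The pseudogenes Gm28437, Gm10925, Gm28661 and Gm29216 were counted at 87.2 to 368 CPM in sum. Gm28439, Gm10222 and Gm28438, all at lower levels, were left out of that sum. Which pseudogene matches which mitochondrial gene was not worked out, so these sums do not compare each gene with its own copy. How reads that align to both places were counted is not given in the sources used here, so levels of these 6 members are uncertain. The 4 genes made up 1.12 to 4.48% of the mitochondrial members' counts, so sums over the 13 rest mainly on the others.

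**Figure D1:**
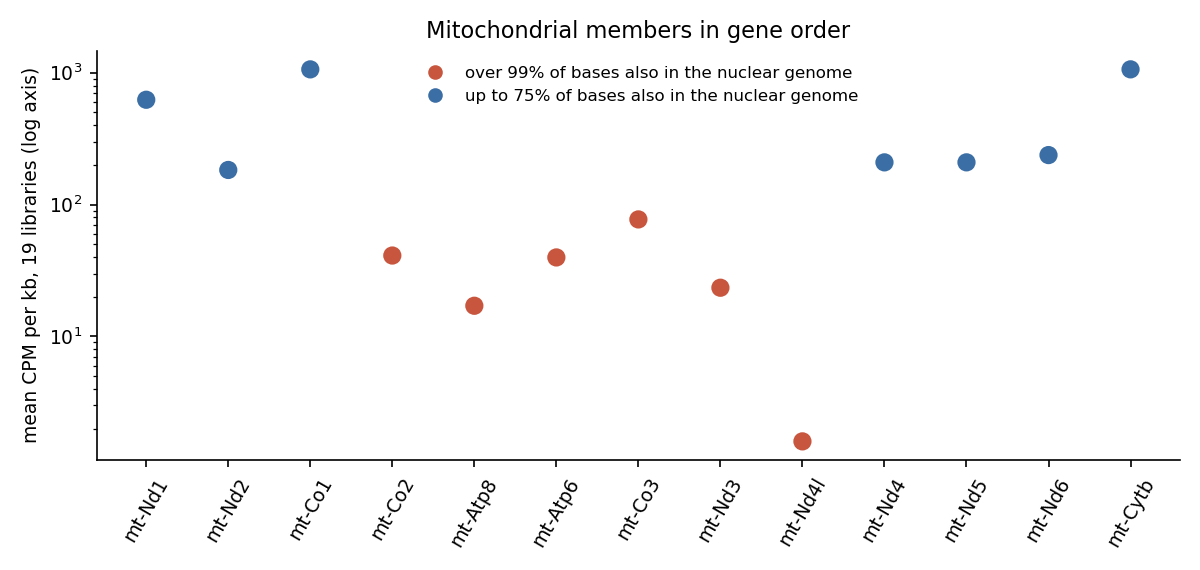
Mean level of each of the 13 mitochondrial members over 19 libraries, in CPM per kilobase on a log axis, in their order along the mitochondrial genome. The 6 members with over 99% of their bases in an identical nuclear copy lie between 1.599 and 77.2 CPM per kb, and the other 7 between 183 and 1061.

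As a share of all counts, the 13 mitochondrial members took 0.422% ± 0.0676 (SD, n = 4) in YWT, 0.493% ± 0.0942 (n = 4) in OWT, 0.432% ± 0.108 (n = 4) in YKO and 0.454% ± 0.0557 (n = 7) in OKO. Nuclear members took 1.35% ± 0.244 in YWT, 1.26% ± 0.0992 in OWT, 1.48% ± 0.351 in YKO and 1.22% ± 0.273 in OKO. The spreads of the 4 groups overlapped on both measures. The ratio of mitochondrial to nuclear counts, which does not depend on scaling between libraries, was 0.302, 0.344, 0.346 and 0.272 in YWT and 0.340, 0.388, 0.371 and 0.464 in OWT. In YKO it was 0.275, 0.312, 0.266 and 0.317. In OKO it was 0.5258, 0.293 and 0.485 in batch 1 and 0.411, 0.443, 0.334 and 0.233 in batch 2, so OKO held both the highest and the lowest ratio of all 19 libraries. OWT and YWT overlapped, as did YKO and YWT. In bulk samples, fewer cells of a type and less RNA per cell cannot be told apart.

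**Figure D2:**
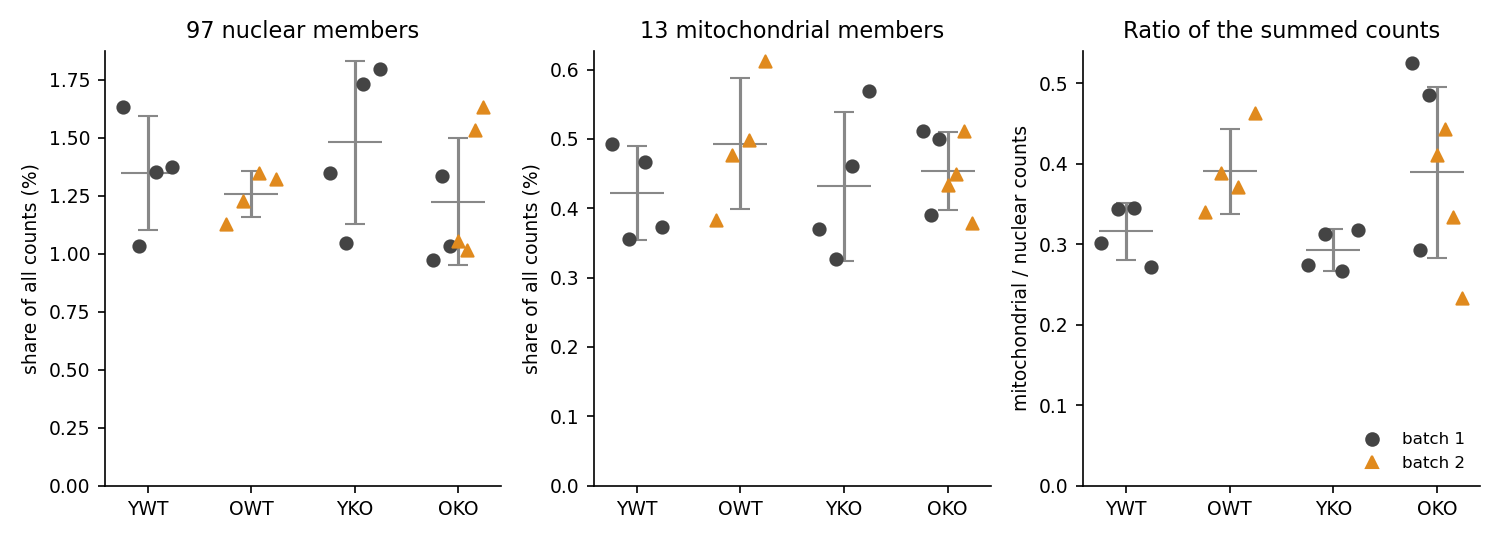
Share of all counts taken by the nuclear and by the mitochondrial members, and their ratio, in each of the 19 libraries by group and batch, with the group mean and SD. OKO libraries span 0.972 to 1.63% for nuclear members and 0.233 to 0.5258 for the ratio, the widest ratio range of the 4 groups.

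A total of 33690 genes passed the expression filter and were tested with the quasi-likelihood test of edgeR in a single fit of all libraries. Of the 110 members, 109 were tested, 96 nuclear and 13 mitochondrial. Cox8b, a muscle form of a small complex IV subunit, did not pass. A gene was called at a Benjamini-Hochberg adjusted p under 0.05 over all tested genes and a fold change over 1.5. Comparisons share groups with each other (YWT, OWT, YKO and OKO each enter a pair of them), so their values are given side by side and not as independent evidence.

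To see how aging of WT HSCs relates to these genes, OWT was compared with YWT. No nuclear or mitochondrial member was called by edgeR or by DESeq2, in a comparison where edgeR called 0.00297% of all tested genes (1 gene) and DESeq2 0.401%. None had an unadjusted edgeR p under 0.05 either, against 4.38% of all tested genes, and the smallest adjusted p of a member was 1.00. In 0 of 109 members did the CPM ranges of the groups separate, against 4.13% of all tested genes. The median log2 fold change was -0.06 over nuclear members, of which 74 of 96 were lower in OWT, and 0.24 over mitochondrial members, of which 12 of 13 were higher, beside -0.05 over all tested genes. When batch was added as a covariate, estimated from OKO alone, the mitochondrial median turned to -0.52 and the nuclear one was -0.93. In that fit 71 nuclear members, all lower, had an unadjusted edgeR p under 0.05, against 16.8% of tested genes, and 0 members were called. With 1 library left out, the nuclear median ran from -0.15 (without YWT4) to 0.02 (without YWT1) and the mitochondrial one from 0.11 (without YWT4) to 0.36 (without OWT1). Granulocyte markers had a median of 1.74 with 8 of 8 higher in OWT, and B cell markers one of -1.69 with 2 of 10 higher. Their part in these values was not tested.

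Medians by complex were close to 0 for nuclear members in OWT vs YWT, from -0.12 in complex IV to -0.02 in complex II. For mitochondrial members they were 0.24 in complex I, 0.31 in complex IV and 0.12 in complex V. mt-Cytb, the mitochondrial member of complex III, was at 1479, 1480, 1327 and 879 CPM in YWT. In OWT it was at 1102, 1052, 1528 and 1700 CPM, with overlap. mt-Co1 was at 1706, 1601, 1636 and 1109 CPM in YWT and at 1649, 2452, 1622 and 2313 CPM in OWT, a log2 fold change of 0.41 (standard error, SE, 0.30). OWT2 and OWT4 lay above all YWT libraries and the other OWT libraries within their range. Among well expressed nuclear members, those with a mean log2 CPM of 3 or more, the lowest fold changes were in Cox6b2 (-0.59), Ndufs6 (-0.35) and Ndufaf2 (-0.29). The highest were in Uqcrc1, a core subunit of complex III, Ndufaf8 and Cox7a2l, a factor that joins complexes III and IV, each at 0.17.

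Outside the members, the 16S mitochondrial rRNA mt-Rnr2 was between 1795 and 2834 CPM in YWT and between 3407 and 4456 CPM in OWT, without overlap. Its log2 fold change was 0.76 (SE 0.29, edgeR adjusted p = 0.976), and an exact permutation test of log2(CPM + 1) gave 0.0286, the smallest p that groups of 4 allow. The 12S rRNA mt-Rnr1 had 0.07 (SE 0.33). The counts of both rRNAs relative to the 13 mitochondrial members were 0.494 to 0.630 in YWT and 0.698 to 0.927 in OWT. They were 0.585 to 0.776 in YKO, 0.915 to 1.09 in OKO of batch 1 and 0.461 to 0.879 in OKO of batch 2. The library kit primes from poly(A) tails, so rRNA counts do not measure the rRNA content of the cells.

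Libraries labelled YKO were compared with YWT for the difference by genotype label in young HSCs, although Gadd45b itself did not differ between them. No member was called by edgeR or DESeq2, where edgeR called 0.0267% of all tested genes and DESeq2 0.416%. With edgeR, 0 members had an unadjusted p under 0.05, against 4.59% of tested genes, and with DESeq2 1 nuclear member did. CPM ranges separated in 0 of 109 members, against 5.12% of tested genes. The nuclear median was 0.05 with 62 of 96 members higher in YKO, the mitochondrial median 0.03 with 7 of 13 higher, and the median over all tested genes -0.02. Both member medians changed sign with 1 library left out. The nuclear one ran from -0.11 (without YKO4) to 0.19 (without YKO2), and the mitochondrial one from -0.18 to 0.15 without the same libraries. By complex, all 4 subunits of complex II were higher, with a median of 0.27, and 14 of 17 nuclear members of complex V, with a median of 0.10. Markers of T cells, erythroid cells and B cells were higher beside them. Their median log2 fold changes were 1.95 (8 of 8 higher), 1.55 (9 of 9) and 0.94 (10 of 10), and that of HSC markers was -0.38 (2 of 10). In that order, 7, 4, 2 and 2 markers had an unadjusted edgeR p under 0.05. Plasma cell markers had a median of -0.38 (0 of 8 higher), megakaryocyte markers -0.15 (2 of 7) and granulocyte markers 0.14 (5 of 8). No marker of these lists was called in this comparison, and their part in the members' values was not tested.

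The highest fold changes of well expressed nuclear members in YKO vs YWT were in Cox6b2 (0.75, SE 0.38), Uqcrc1 (0.49, SE 0.33) and Sdhd, a membrane anchor of complex II (0.44, SE 0.35). Uqcrc1 was at 451, 469, 426 and 344 CPM in YWT and at 568, 420, 691 and 691 CPM in YKO. In 3 of 4 YKO libraries it lay above all YWT libraries, and YKO2 lay within their range. The lowest were Cox7c (-0.23), Ndufa3 (-0.19) and Ndufaf2 (-0.18).

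Within the mitochondrial members, the makeup differed between YKO and YWT for 2 of 13 genes, picked after their values were seen and given with no test. mt-Nd1 made up 12.9, 13.6, 11.5 and 10.6% of the mitochondrial members' counts in YWT and 14.7, 15.4, 15.6 and 16.0% in YKO, without overlap. mt-Co3, a core subunit of complex IV, made up 1.33, 1.49, 1.33 and 1.59% in YWT and 0.555, 0.861, 1.05 and 1.295% in YKO, again without overlap, and is a gene with an identical nuclear copy. In each of the other 3 comparisons, 0 of 13 shares separated the groups. On the CPM scale the log2 fold change in YKO vs YWT was 0.39 for mt-Nd1 (SE 0.31) and -0.47 for mt-Co3 (SE 0.45), and both groups overlapped.

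OKO was compared with OWT for the difference by genotype in old HSCs. No member was called by edgeR or DESeq2, against 0.0327% of all tested genes by edgeR and 0.22% by DESeq2. An unadjusted edgeR p under 0.05 was reached by 1 member, mt-Nd6, against 8.14% of tested genes, and CPM ranges separated in 0 of 109 members, against 0.819%. The median was -0.19 over nuclear members, of which 8 of 96 were higher in OKO, -0.39 over mitochondrial members, of which 0 of 13 were higher, and 0.12 over all tested genes. Upper-quartile scaling moved these medians to -0.04, -0.21 and 0.36. With OKO of batch 2 only, the batch of OWT, the nuclear median turned to 0.14, with 83 of 96 members higher, and the mitochondrial one was -0.13. With 1 library left out, the nuclear median ran from -0.42 (without OKO7) to -0.08 (without OKO1), and the mitochondrial one from -0.49 (without OKO6) to -0.23 (without OWT4). Granulocyte markers had a median of -1.76, with 0 of 8 higher in OKO and 7 at an unadjusted edgeR p under 0.05, and HSC markers one of -0.40, with 0 of 10 higher. Their part in these values was not tested.

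All 13 mitochondrial log2 fold changes in OKO vs OWT lay between -0.50 and -0.24. mt-Nd6, the complex I subunit encoded on the light strand, was at 123, 112, 183 and 182 CPM in OWT. In OKO it was at 119, 85.7 and 108 CPM in batch 1 and at 68.8, 93.7, 143 and 136 CPM in batch 2. OKO1, OKO6 and OKO7 lay within the OWT range, and the log2 fold change was -0.48 (SE 0.23, edgeR adjusted p = 0.592). Among well expressed nuclear members the lowest fold changes were Cox7a2l (-0.39), Ndufs4 (-0.38) and Ndufv3 (-0.36), the last a pair of accessory complex I subunits.

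For nuclear members the median farthest from 0 was that of OKO vs YKO, the comparison of age in KO HSCs. Nuclear members were lower in OKO in 89 of 96 cases, with a median log2 fold change of -0.34 beside 0.23 over all tested genes, while the mitochondrial median was -0.09 with 8 of 13 lower. No member was called by edgeR, where 1.29% of all tested genes were, and DESeq2 called 3 of 109 members, where it called 6.23% of all tested genes. An unadjusted edgeR p under 0.05 was reached by 16 members, against 15.8% of tested genes: 14 nuclear members and mt-Nd5 lower, and Cox4i2 higher. CPM ranges separated in 0 of 109 members, against 2.6% of tested genes. With upper-quartile scaling the nuclear median was -0.23, the mitochondrial one turned to 0.07 and that of all tested genes was 0.43. With genes of a mean of at least 5 CPM only, these were -0.16, 0.13 and 0.03. With 1 library left out, the nuclear median ran from -0.58 (without OKO7) to -0.18 (without YKO4), and the mitochondrial one from -0.25 (without YKO2) to 0.20 (without YKO4), a change of sign that leaving out OKO1, OKO2 or YKO3 (each 0.01) gave too.

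The nuclear median in OKO vs YKO was below 0 in each complex. It was -0.28 in complex I with 36 of 39 members lower, -0.39 over the assembly factors with 8 of 8 lower, and -0.53 in complex II with 4 of 4 lower. In complex III it was -0.31 with 8 of 8 lower, in complex IV -0.36 with 16 of 20 lower, and in complex V -0.37 with 17 of 17 lower. Mitochondrial members had -0.19 in complex I and -0.34 in complex III (mt-Cytb), 0.13 in complex IV and 0.06 in complex V. mt-Nd5, a proton-pumping subunit of complex I, was at 419, 345, 433 and 578 CPM in YKO. In OKO it was at 302, 269 and 353 CPM in batch 1 and at 271, 360, 382 and 356 CPM in batch 2, all below the 3 higher YKO libraries. Its log2 fold change was -0.44 (SE 0.21, edgeR adjusted p = 0.300).

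**Figure D3:**
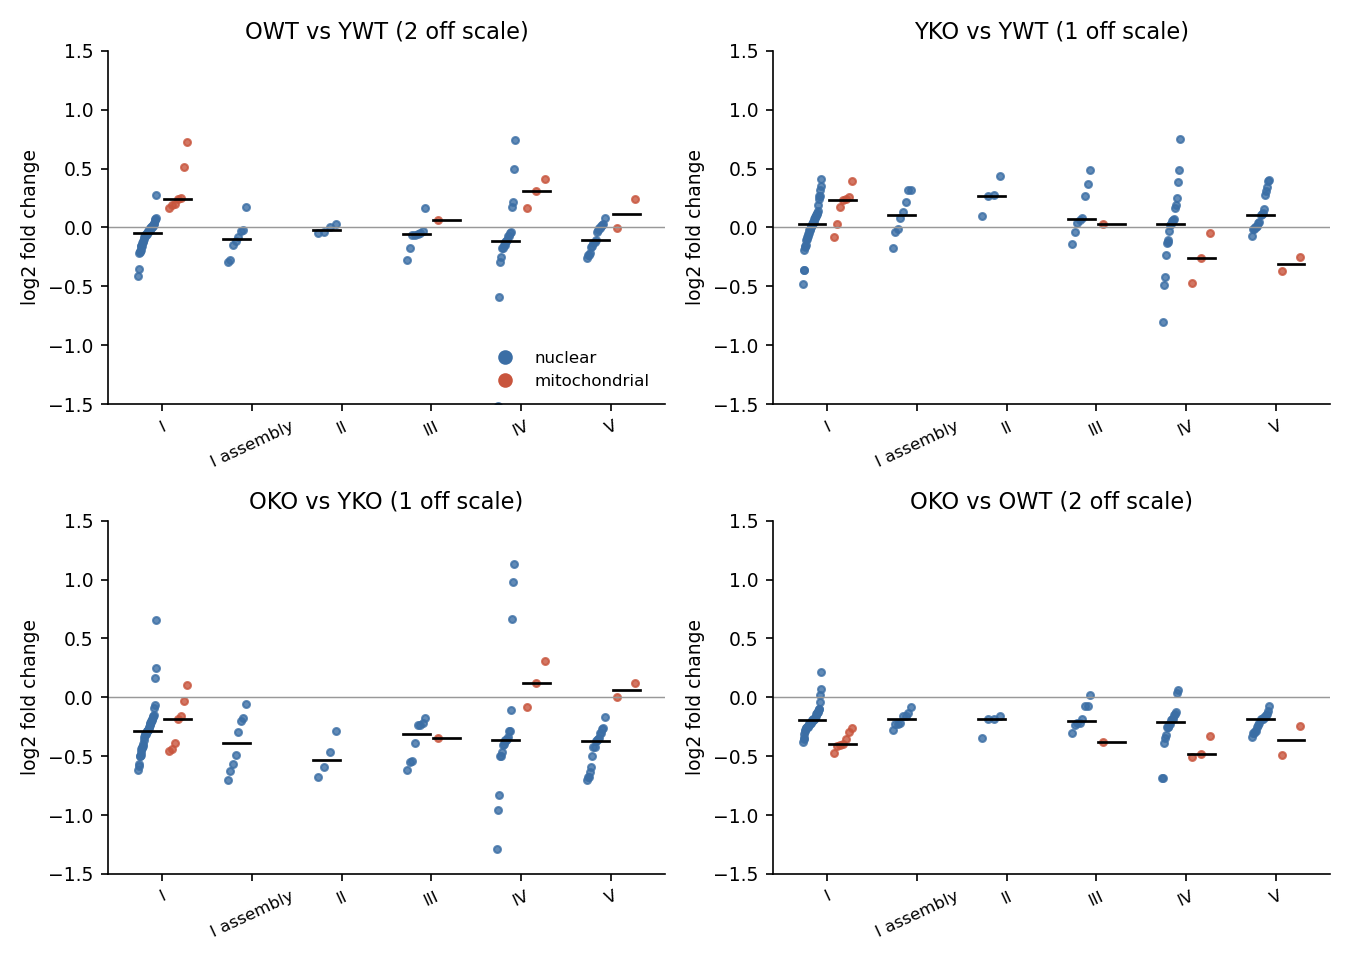
Log2 fold change of each tested member in the 4 comparisons, by complex and genome, 1 point per gene with the median of each class as a bar. A few members of very low level, Cox6a2 and Cox8c, lie off the scale, as each panel title counts. Only in the OKO vs YKO panel do all 6 nuclear classes have medians of -0.28 or lower.

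Among complex I members in OKO vs YKO, Ndufa9, an accessory subunit near the quinone site, was at 221, 132, 199 and 207 CPM in YKO. In OKO it was at 54.5, 113 and 68.1 CPM in batch 1 and at 112, 128, 163 and 228 CPM in batch 2. Its log2 fold change was -0.61 (SE 0.28, edgeR adjusted p = 0.278). OKO1 to OKO5 lay below all YKO libraries, OKO6 within their range and OKO7 above it. Ndufs1, the largest iron-sulfur subunit, had -0.50 (SE 0.24, edgeR adjusted p = 0.315), and Ndufb8 of the membrane arm -0.20 (SE 0.28, edgeR adjusted p = 0.739).

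Of the assembly factors, Ndufaf7, a mitochondrial methyltransferase, was at 62.2, 35.3, 57.2 and 59.5 CPM in YKO and at 19.6 to 47.1 CPM in OKO, with a median of 33.8. YKO2 lay among the OKO libraries, and the other 3 YKO libraries above all of them. Its log2 fold change was -0.70 (SE 0.20), with an edgeR adjusted p of 0.0872 and a DESeq2 adjusted p of 0.0164. The exact permutation p of 0.0303 is unadjusted and belongs to a gene that DESeq2 called in these data. Ndufaf1, a scaffold of the early membrane arm, had -0.63 (SE 0.22, edgeR adjusted p = 0.159).

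In complex II, Sdhd was at 288, 165, 336 and 327 CPM in YKO. In OKO it was at 71.3, 159 and 87.0 CPM in batch 1 and at 180, 177, 219 and 331 CPM in batch 2. Here too YKO2 lay among the OKO libraries, and OKO7 among the higher YKO libraries. The log2 fold change was -0.67 (SE 0.30, edgeR adjusted p = 0.277). Sdhb, the iron-sulfur subunit, had -0.47 (SE 0.32), and Sdha, the flavoprotein, -0.29 (SE 0.24).

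In complex III, Uqcrc1 had a log2 fold change of -0.54 (SE 0.29, edgeR adjusted p = 0.367) and Uqcrfs1, the Rieske iron-sulfur protein, of -0.62 (SE 0.28, edgeR adjusted p = 0.280). In complex V, Atp5a1 was at 1781, 1166, 1818 and 1851 CPM in YKO and at 469 to 1580 CPM in OKO, with a median of 1070. Its log2 fold change was -0.70 (SE 0.27), with an edgeR adjusted p of 0.196 and a DESeq2 adjusted p of 0.0412. The exact permutation p of 0.0455 is unadjusted and belongs to a gene that DESeq2 called in these data. YKO2 was again the only YKO library within the OKO range. Atp5b had -0.67 (SE 0.30, edgeR adjusted p = 0.275).

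The lowest log2 fold change among well expressed members was in Cox6b2, a form of the intermembrane-space subunit 6b of complex IV best known from testis (chromosome 7, 4751792 to 4753094, minus strand, mm10). It was at 64.5, 34.7, 84.3 and 85.7 CPM in YKO. In OKO it was at 18.7, 24.3 and 16.6 CPM in batch 1 and at 17.7, 17.1, 40.5 and 58.4 CPM in batch 2. In YWT it was at 62.7, 39.8, 30.8 and 26.6 CPM, and in OWT at 24.3, 27.2, 31.0 and 23.3 CPM. YKO2 lay within the OKO range and OKO6 and OKO7 within the YKO range. The log2 fold change in OKO vs YKO was -1.28 (SE 0.33), with an edgeR adjusted p of 0.0539 and a DESeq2 adjusted p of 0.00542. The exact permutation p of 0.0182 is unadjusted and belongs to a gene that DESeq2 called in these data. Cox5a, a matrix-side subunit of complex IV, had -0.83 (SE 0.33, edgeR adjusted p = 0.219), and 12.8% of its exon bases are shared with a gene on the opposite strand.

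Relative to its broadly expressed partner Cox6b1, which is independent of scaling between libraries, Cox6b2 made up 18.6, 15.2, 12.6 and 13.01% of the counts of the pair in YWT and 11.8, 12.4, 11.4 and 8.52% in OWT. It made up 20.3, 18.8, 22.6 and 22.1% in YKO. In OKO it made up 17.1, 12.8 and 12.0% in batch 1 and 11.7, 10.05, 12.0 and 13.9% in batch 2. All 4 YKO libraries lay above the other 15, with the lowest YKO share at 18.8 and the highest YWT share at 18.6, and all 4 OWT libraries lay below all 4 YWT libraries. Here YKO and OKO did not overlap in either batch of OKO. This share was chosen after its values were seen and has no test. Exons of Cox6b2 share no bases with another annotated gene.

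Other tissue-limited forms were low. Cox6a2, the heart and muscle form of subunit 6a, was under 6 CPM in 17 of 19 libraries, and at 21.4 CPM in YWT2 and 32.2 CPM in OKO7. Of its exon bases, 10.3% are shared with Itgad. Its log2 fold change in OKO vs YKO was 2.04 (SE 1.56, edgeR adjusted p = 0.538), and turned to -6.06 with OKO of batch 1 only (edgeR adjusted p = 0.0309), where it was at 0 to 0.0403 CPM, and to -6.13 with batch as a covariate. YWT2 also had the highest summed level of the 8 plasma cell markers, 27068 CPM, and OKO7 the highest of OKO, 4740 CPM. YKO2 had the highest of YKO, 13792 CPM, and Cox6a2 at 3.12 CPM, also the highest of YKO. In OKO of batch 1 the markers summed to 126 to 366 CPM. The part of these markers in the Cox6a2 values was not tested. Cox4i2, a lung form linked to low oxygen, was at 1.44 ± 0.935 CPM (SD, n = 4) in YKO and 2.89 ± 1.17 CPM (SD, n = 7) in OKO, and made up 0.0561 to 1.62% of its pair with Cox4i1 over all libraries.

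**Figure D4:**
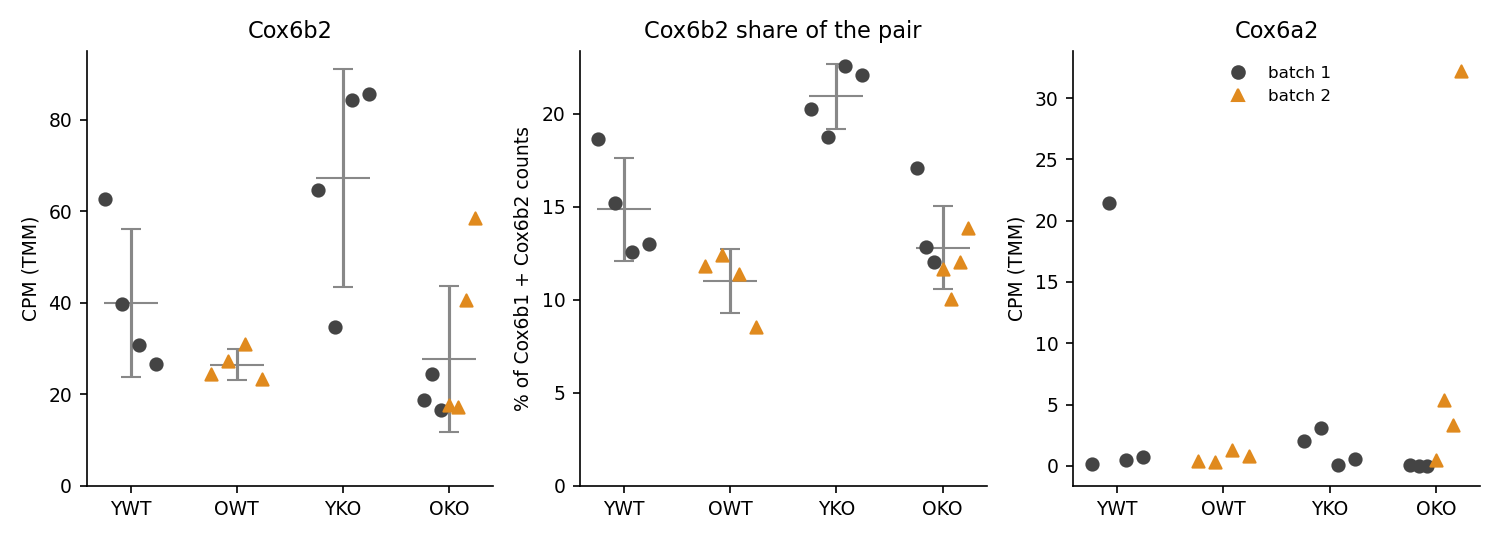
Cox6b2 in CPM, Cox6b2 as a percentage of the counts of Cox6b1 and Cox6b2, and Cox6a2 in CPM, in each library by group and batch, with the group mean and SD for the first pair of panels. The 4 YKO libraries have the highest Cox6b2 shares, 18.8 to 22.6%, and Cox6a2 is high in only 1 YWT and 1 OKO library.

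The comparison of OKO with YKO depended on which OKO libraries entered it. With the 3 of batch 1 only, the batch of YKO, 67 members were called, all lower: 66 of 96 nuclear members and mt-Nd1, where 17.9% of all tested genes were called. With the 4 OKO libraries of batch 2 only, 0 members were called, where 0.815% of all tested genes were. Batch and the individual animals of OKO cannot be told apart, and the difference between these sets of OKO libraries was not tested. With batch as a covariate, 60 members were called, against 19.1% of tested genes. The nuclear median was -0.83 within batch 1 and -0.05 with OKO of batch 2, the mitochondrial one -0.51 and 0.21, and that of all tested genes 0.54 and -0.01. With genes of a mean of at least 5 CPM only and OKO of batch 1, 23 members were called, against 28% of tested genes. With that filter and batch as a covariate, 13 were called, against 25.5%, and with the replicate number as a block 27, against 5.27%.

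Members called with OKO of batch 1 were 27 of complex I beside mt-Nd1, 4 assembly factors, 3 of complex II, 6 of complex III, 10 of complex IV and 16 of complex V. The nuclear medians were -0.79 in complex I, -0.76 over assembly factors, -1.12 in complex II, -0.90 in complex III, -0.81 in complex IV and -0.90 in complex V. The matching medians with OKO of batch 2 were 0.06, -0.17, -0.17, 0.00, -0.07 and -0.04. Beside Cox6a2, the lowest called log2 fold changes within batch 1 were Cox6b2 (-1.70), Cox5a (-1.36) and Sdhd (-1.34), with edgeR adjusted p-values of 0.00373, 0.00759 and 0.00669. CPM ranges of OKO of batch 1 lay below those of YKO in 34 of 96 nuclear and 3 of 13 mitochondrial members, against 14.9% of all tested genes, and above in 1 nuclear member, against 14.3%. For OKO of batch 2, 1 nuclear member lay below, against 2.75%, and 1 above, against 2.56%. These calls and ranges rest on TMM scaling, with factors of 1.83, 1.24 and 1.41 in OKO1 to OKO3. As a share of all counts, nuclear members took 0.972 to 1.33% in OKO of batch 1 and 1.05 to 1.79% in YKO, with overlap. Mitochondrial members took 0.391 to 0.511% and 0.326 to 0.569%, also with overlap.

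**Figure D5:**
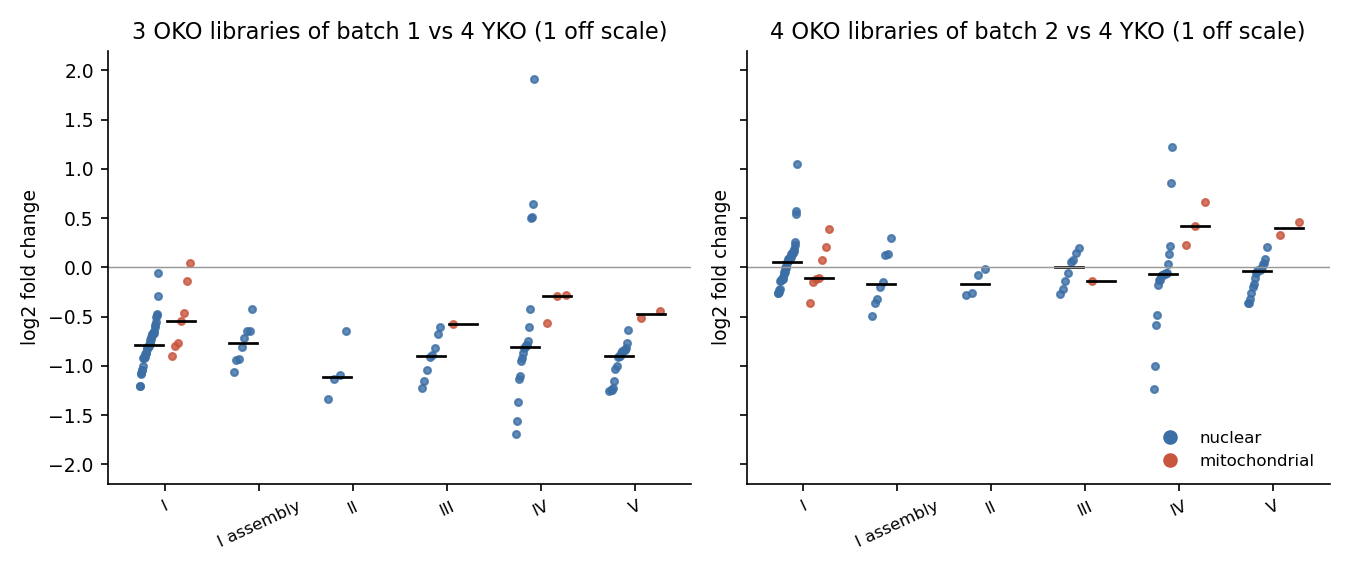
Log2 fold change in OKO vs YKO of each member by complex, with the OKO libraries of batch 1 only and of batch 2 only, 1 point per gene with the median of each class as a bar. Nuclear medians lie between -1.12 and -0.76 with OKO of batch 1 and between -0.17 and 0.06 with OKO of batch 2, and 1 very low member is off the scale in each panel.

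Levels of nuclear members differed between libraries in an order that depended on the scaling. In TMM-scaled CPM, of the 89 nuclear members with a mean of at least 1 CPM, 82 had their lowest level of all 19 libraries in OKO1 and 72 their highest in OKO7. The TMM factors of these libraries were 1.83 and 0.793. Matching counts over all tested genes were not worked out, so whether this order is particular to the members was not tested. The median deviation of nuclear members from their mean log2 level was -1.15 in OKO1, -0.26 in OKO2 and -0.70 in OKO3, and -0.42, -0.22, 0.35 and 0.72 in OKO4 to OKO7. In YKO it ran from -0.30 to 0.56, in YWT from -0.10 to 0.38 and in OWT from -0.09 to 0.22. Scaled by the library total alone, 17 had their lowest level in OKO1 and 30 in OKO5, and 19 had their highest in OKO7 and 31 in YKO4. Leaving out OKO7 raised the members called in OKO vs YKO from 0 to 7, against 5.47% of tested genes. Leaving out YKO2 gave 2, against 0.635%, and leaving out OKO6 gave 1, against 0.996%.

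Markers of some other blood cells moved alongside in OKO. The 10 B cell markers summed to 201 to 1567 CPM in YKO, 32.0 to 41.5 CPM in OKO of batch 1 and 82.6 to 265 CPM in OKO of batch 2. The 8 plasma cell markers summed to 760 to 13792 CPM in YKO, 126 to 366 CPM in OKO of batch 1 and 1150 to 4740 CPM in OKO of batch 2, and the 9 erythroid markers to 1680 to 4818 CPM in YKO and 54.0 to 2701 CPM in OKO. In OKO vs YKO, 5 B cell markers, 3 of 8 T cell markers and 4 erythroid markers were called lower, where 1.29% of all tested genes were called. Of the markers, 0 were at 0 in every library. The 10 HSC markers summed to 2513 to 3229 CPM in YKO and 2438 to 4358 CPM in OKO. The median log2 fold change of HSC markers in OKO vs YKO was 0.45, with 8 of 10 higher. An unadjusted edgeR p under 0.05 was reached by 4 of them, against 15.8% of tested genes. The part of all these markers in the levels of the members was not tested.

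The genotype by age interaction asks whether OKO vs YKO differs from OWT vs YWT. By edgeR, 0 members had an adjusted p under 0.05, as did 0% of all tested genes, and DESeq2 called 0 members and 0.0178% of all tested genes. An unadjusted p under 0.05 was reached by 1 member, Cox6a2, against 4.62% of tested genes, and the smallest adjusted p of a member was 0.811. The nuclear median was -0.28 and the mitochondrial one -0.40, beside 0.18 over all tested genes. They were -0.77 and -0.70 with OKO of batch 1 only, and 0.05 and -0.18 with OKO of batch 2 only. The lowest values of well expressed members were Uqcrc1 (-0.71), Atp5a1 (-0.70) and Cox6b2 (-0.69).

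Many nuclear genes of this system carry sites for the factors NRF1, GABPA and YY1 near their start, and the members' promoters were searched for them. Any link between such sites and the levels of the members was not tested. Of 97 nuclear members, 76 were found in a RefSeq table of the promoters of 27025 genes (GRCm38.p6). Each promoter held 250 bases before the start and 50 after, and a gene with more than 1 promoter was counted once. The NRF1 core CGCATGCG, on either strand, was in 14.5% of these members and in 2.07% of all genes there. The ETS core of GABPA, CCGGAAG or CTTCCGG, was in 25% and 9.93%. The YY1 core AAGATGGC or GCCATCTT was in 14.5% and 3.19%, and at least 1 of these cores in 44.7% and 14.1%. The search took overlapping matches as they came, and a match says only that these letters are there. The 150 bases before the start are shown, with the core in capitals, for an assembly factor with an NRF1 core, an assembly factor with an ETS core, and the complex IV subunit Cox5a, which was among the lowest fold changes in OKO vs YKO and has none of these cores in its window.
Ndufaf4, chr4:24897933-24898082, plus strand: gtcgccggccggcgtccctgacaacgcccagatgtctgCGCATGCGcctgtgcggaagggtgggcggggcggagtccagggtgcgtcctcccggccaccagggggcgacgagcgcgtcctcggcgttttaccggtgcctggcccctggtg
Ndufaf1, chr2:119662835-119662984, minus strand: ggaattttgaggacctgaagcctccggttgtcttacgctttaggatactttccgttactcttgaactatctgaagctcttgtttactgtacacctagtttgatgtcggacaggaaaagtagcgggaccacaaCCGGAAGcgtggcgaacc
Cox5a, chr9:57521082-57521231, plus strand: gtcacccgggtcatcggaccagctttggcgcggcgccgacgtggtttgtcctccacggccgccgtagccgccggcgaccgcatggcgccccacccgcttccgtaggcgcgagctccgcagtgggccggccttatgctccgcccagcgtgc

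In OKO vs YKO, Ndufaf4 had a log2 fold change of -0.57 (SE 0.27, edgeR adjusted p = 0.308). Of the regulators themselves, Nrf1 had -0.47 (SE 0.21, edgeR adjusted p = 0.272) and Gabpa -0.18 (SE 0.19, edgeR adjusted p = 0.667). Tfam, which packages mitochondrial DNA and takes part in its transcription, had -0.46 (SE 0.19, edgeR adjusted p = 0.239). Ppargc1b, a coactivator of mitochondrial genes, had -0.38 (SE 0.20, edgeR adjusted p = 0.367). The mean of Ppargc1a went the other way, at 2.99 ± 1.61 CPM (SD, n = 4) in YKO and 4.56 ± 2.63 CPM (SD, n = 7) in OKO, with overlap. Over the list of 15 regulators of respiration the median was -0.13, with 7 higher in OKO.

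Genes around the members were taken from lists of mitochondrial biology. In OKO vs YKO, 1 of the 15 regulators of respiration was called, where 1.29% of all tested genes were. This was Myc, a driver of growth and mitochondrial biogenesis. It fell by 1.09 on the log2 scale (SE 0.27, edgeR adjusted p = 0.0449). All 4 YKO libraries lay above all 7 of OKO, and CPM ranges separated in 2.6% of tested genes. None was called among 17 genes of mitochondrial transcription and replication (median -0.30), 15 of mitochondrial RNA processing (-0.45), 34 of complex III to V assembly (-0.20), 12 of electron carriers and exchange (-0.48) and 17 of the citrate cycle (-0.48). In these 5 lists, 5, 5, 2, 3 and 7 genes had an unadjusted edgeR p under 0.05, against 15.8% of all tested genes. The median of all tested genes was 0.23. With OKO of batch 1 only, where 17.9% of all tested genes were called, 15 of 17 citrate cycle genes, 10 of 12 carriers, 9 of 15 genes of RNA processing and 6 of 17 of transcription and replication were called lower. In the same fit 12 of 34 assembly genes were called lower and 1 higher, and 4 of 15 regulators lower and 2 higher. With OKO of batch 2 only, 0 genes of these lists were called, where 0.815% of all tested genes were. In the other 3 comparisons and the interaction, 0 genes of these 6 lists were called. Of all tested genes, 0.00297% were called in OWT vs YWT, 0.0267% in YKO vs YWT, 0.0327% in OKO vs OWT and 0% in the interaction.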

How the data were processed

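RNA-seq of sorted HSCs was analysed in 19 libraries made with the SMART-Seq v4 kit, and the 10 WGBS samples were not analysed here. The authors trimmed reads with Trim Galore 0.4.3 and cutadapt, aligned them with STAR to mm10 (GENCODE M22) and deposited, per gene symbol, the raw count that featureCounts gave. Strand, mate and multi-mapping settings are not given in the sources used here, so 42 members that share exon bases with another gene, 32 of them with an opposite-strand gene, are less certain. Members and lists were chosen with earlier results of these data known.

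In R 4.3.3, counts passed filterByExpr, were scaled by TMM and fitted with edgeR 4.0.16 (quasi-likelihood, 1 mean per group, no covariate). Calls needed an adjusted p below 0.05 with a change of more than 1.5-fold, and for the interaction the adjusted p alone. The study's methods name DESeq2 with a RUV script whose settings the text does not give, so DESeq2 1.42.0 was an alternative. Exact two-sided permutation tests used log2(CPM + 1). Among members, their unadjusted p is printed only for the 3 that DESeq2 called in OKO vs YKO, so it is not separate evidence. The edgeR fit was tested on simulated counts, for OKO vs YKO and YKO vs YWT and with no batch effect. Named genes are the 13 mitochondrial members, called members, the 3 highest and 3 lowest fold changes among nuclear members of mean log2 CPM 3 or more, fixed core subunits, tissue-limited isoforms with partners, and fixed regulators. The Ndufaf genes, Sdhc, Sdhd and others named outside this rule were chosen after their values were seen. Gene positions and exon lengths are from GENCODE M21 (109 of 110 members found). Alternatives were DESeq2, upper-quartile scaling, scaling without mitochondrial genes, other filters, batch as a covariate, OKO of 1 batch, the replicate number as a block, and each library left out.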

Additional observations from a re-analysis of the deposited data

Results flagged for a closer look

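Of 132 sets of values, each a gene or share within a group of 4 or 7 libraries, 4 held a library far from the rest by Dixon's test, which chance does in about 1 in 20 sets. Atp5a1 was at 1166 CPM in YKO2, with the nearest YKO library at 1781 CPM. Cox6a2 was at 21.4 CPM in YWT2, with the nearest YWT library at 0.753 CPM. Cox6a2 was also at 32.2 CPM in OKO7, with the nearest OKO library at 5.36 CPM. Gadd45b was at 15.5 CPM in OWT3, with the nearest OWT library at 10.4 CPM.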

How the results depend on the processing

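Depth limits the 8 nuclear members under 1 CPM. Outside the alternatives named here, 0 members were called in each comparison. In OKO vs YKO, 0 members became 3 with DESeq2 (against 6.23% of tested genes), 1 with no filter (622 of 52612 genes) and 1 with a mean of at least 5 CPM (1502 of 12363). The count became 60 with batch as a covariate (19.1%), 67 with OKO of batch 1 only (17.9%) and 0 to 7 with each library left out in turn. In combinations chosen after seeing the data, it became 13 with at least 5 CPM and batch (25.5%). It became 23 with at least 5 CPM and OKO of batch 1 (28%). In that fit the interaction called 2 members, Atp5a1 and Uqcrc1, and 1199 of 12420 genes. Leaving out the 4 annotated pseudogenes, also chosen after seeing the data, changed no count of called members. Counts of direction moved slightly, to 72 of 92 nuclear members lower in OWT vs YWT and 88 of 92 lower in OKO vs YKO. The cause was not tested.

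With batch as a covariate the nuclear median log2 fold change became -0.93 in OWT vs YWT (-0.55 with at least 5 CPM) and -0.89 in OKO vs YKO, and the mitochondrial one -0.52 and -0.58. With OKO of batch 1 only, the mitochondrial median was -0.51 in OKO vs YKO and the nuclear interaction median -0.77. Cox6a2 in OKO vs YKO reversed to -6.13 with batch and to -6.06 with OKO of batch 1.

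Replicate numbers did not pair the libraries: deviations of same-numbered libraries correlated at -0.361 to 0.362, and numbers 5 to 7 exist in OKO only, so a fit with the replicate number as a block compares OKO1 to OKO4. That block gave 27 members called in OKO vs YKO, against 5.27% of tested genes. Nuclear medians were -0.72 in OKO vs OWT and -0.75 in the interaction, and mitochondrial medians -0.57 in OKO vs YKO and -0.75 in OKO vs OWT.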
